A study of Mus musculus with 8 samples.

Results

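The epidermal differentiation complex is a dense cluster of genes whose products build the cornified envelope, the cross-linked protein shell of dead keratinocytes. The members described here are the genes whose symbols start with Sprr, Lce or S100a, together with Lor, Flg, Flg2, Ivl, Hrnr, Rptn, Crnn, Tchh and Tchhl1. The RefSeq table holds 63 such genes, 62 of them on chromosome 3 and 1 on chromosome 12. Of these, 56 have a probe on the array, out of 37018 genes and transcripts in all, and 65 probes map to them. Flg, Lce1j, Lce6a, S100a11-ps, Sprr2a1, Sprr2a3 and Sprr2c-ps have no probe here, so filaggrin itself was not measured. The 56 genes comprise 19 Lce, 15 S100a and 14 Sprr genes, 6 genes of the fused S100 type, and Lor and Ivl.

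The tissue was the whisker follicle, and all 8 samples are labelled female and ApcMin/+, a genotype with 1 mutant and 1 normal Apc allele. Both groups thus carried the mutation. The 4 E7386 samples are from mice dosed by mouth at 30 mg/kg, 2 times a day, in 4 cycles of 5 days with drug and 2 without, starting at an age of 8 weeks, with follicles taken 6 h after the last dose. E7386 is known as a compound that acts on the interaction of beta-catenin with its coactivator CBP. The 4 vehicle samples are the controls, and no dosing schedule, start age or time of sampling is recorded for them here. The labels do not say whether samples are from separate mice or pooled ones, so spread and p-values cover these samples only and may be technical.

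Values are log2 of the background-corrected array signal minus the 75th percentile of the same array, so 0 is the signal at that percentile and a step of 1 is a factor of 2. Levels of different genes come from different probes and cannot be ranked against each other. All 8 arrays share 1 slide, with vehicle in one row and E7386 in the other, so row and treatment cannot be told apart. Hair follicle identity was plain in both groups. All 8 inner root sheath keratins on the marker list were measured, with per-array means of 4.57 to 5.14 with vehicle and 4.52 to 5.11 with E7386. Skeletal muscle signal differed between arrays of the same group, with a mean over 10 muscle genes of 1.18 to 4.20 with vehicle and 1.38 to 4.30 with E7386, and it was low on vehicle replicate 1 and on E7386 replicates 1 and 2. In whole tissue, fewer cells of a type and less RNA per cell cannot be told apart.

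Loricrin and involucrin form the scaffold of the envelope, and small proline-rich proteins (Sprr) act as cross-bridging peptides between them. Late cornified envelope proteins (Lce) are added in the outermost layers. The Lce1 group is typical of normal epidermis, whereas Lce3 genes, Sprr2 genes and the S100a8 and S100a9 pair are known for induction after wounding or in inflamed skin. Fused S100-type proteins such as filaggrin-2, hornerin and trichohyalin bind or bundle keratin filaments, and trichohyalin does so in the inner root sheath and medulla of hair. S100a proteins are small calcium-binding proteins, and S100a3 is a protein of the hair cuticle.

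The measured members did not differ past the threshold between E7386 and vehicle, but one set of them differed by large factors between samples of the same group. A member counted as measured when the scanner software marked its brightest probe as well above background on 3 or 4 arrays of either group, which 51 of the 56 genes met. Of these 51, 0 passed an adjusted p of 0.05 (limma, Benjamini-Hochberg over 25353 genes), where 1.13% of all genes tested did. At an unadjusted p under 0.05 stood 1 member, Lce1d, or 1.96% of members against 15.0% of all genes. The median log2 change, E7386 minus vehicle, was 0.16 over the members and 0.02 over all genes. The mean was higher with E7386 for 37 of the 51 (72.5%), against 53.9% of all genes. It was higher for 26 of the 51 when E7386 replicate 1 was left out. The median change without that array was 0.02. With the array median as the reference level, the mean was higher for 31 of the 51, with a median change of 0.09 against -0.054 over all genes.

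By subfamily, the median log2 change was 0.25 for 19 Lce genes, 0.34 for 10 Sprr genes, 0.01 for 14 S100a genes and 0.03 for 6 genes of the fused S100 type. Without E7386 replicate 1 the Sprr median was -0.32 and the Lce median 0.13. The Sprr median was also negative without E7386 replicate 2 (-0.15), without vehicle replicate 4 (-0.17) and with array weights (-0.09), and was 1.09 without E7386 replicate 3. With array medians, the medians of the S100a and fused-type genes were -0.06 and -0.04. The lowest adjusted p of any member was 0.256, for Lce1d,. The 95% intervals of the changes were narrow for most S100a and Lce1 genes and wider for Lce3 genes and for most Sprr2 genes, though not for Sprr2a2 (-0.12 to 0.25). A p that misses the threshold does not show that the groups were alike.

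**Figure D1:**
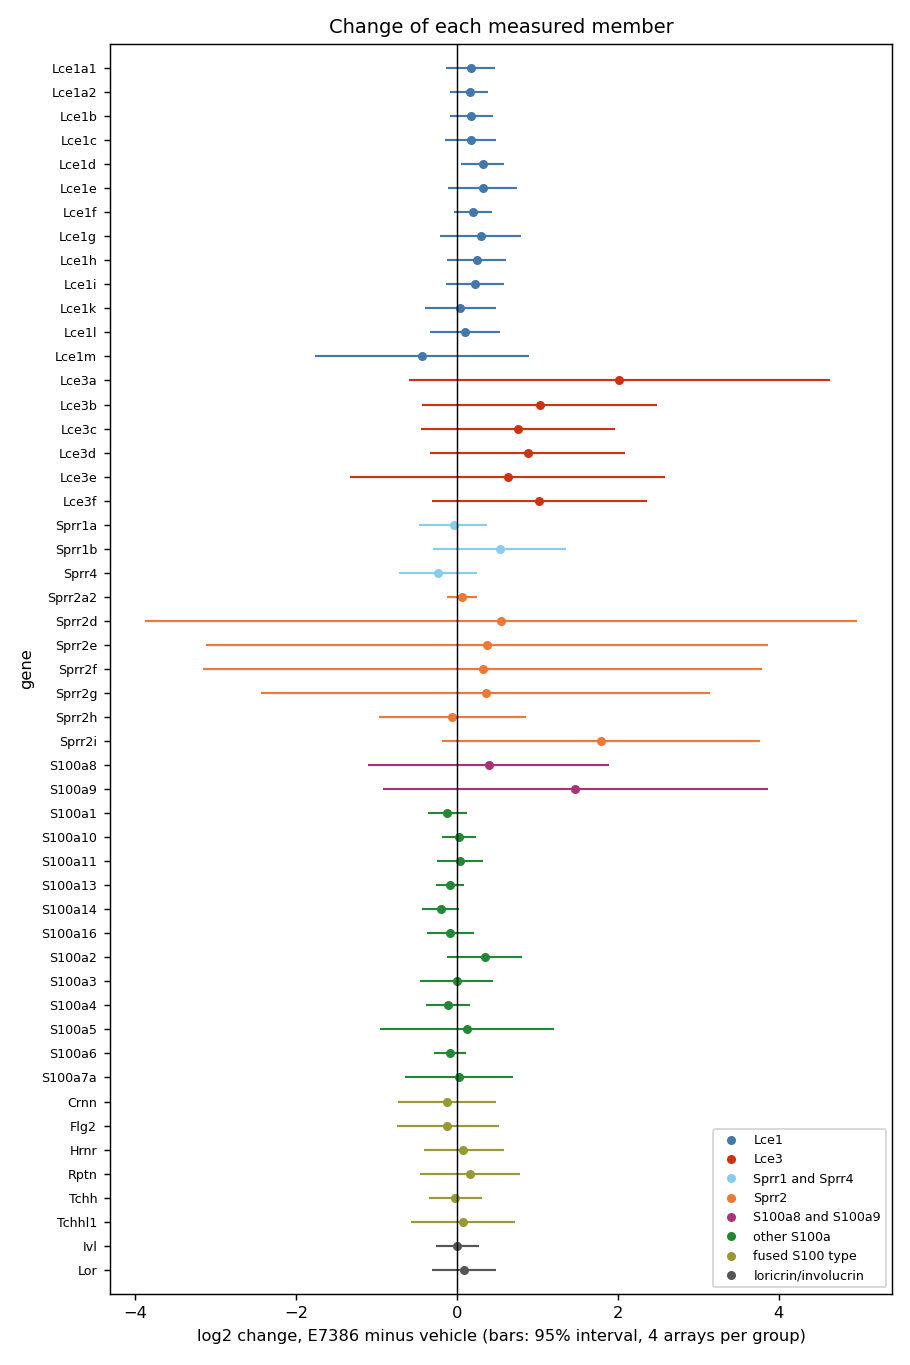
Log2 change of each of the 51 measured members (E7386 minus vehicle, x axis), with its 95% interval from limma, 4 arrays per group, coloured by subfamily. The interval of Lce1d, from 0.05 to 0.59, lies above 0, while that of Sprr2d runs from -3.87 to 4.97.

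Loricrin, the main protein of the envelope by mass in epidermis, had similar means in both groups. Its pooled within-group SD was 0.27, against a median of 0.18 over all genes. Lor read 7.18, 6.88, 7.35 and 7.72 on vehicle replicates 1 to 4 and 7.32, 7.21, 7.45 and 7.51 on E7386 replicates 1 to 4. All E7386 values lie within the vehicle range. The change was 0.09 (SE 0.17, adjusted p = 0.869), with a 95% interval of -0.31 to 0.48.

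Involucrin, an early envelope scaffold protein, read 0.47, 0.33, 0.74 and 0.54 with vehicle and 0.58, 0.61, 0.29 and 0.62 with E7386. The groups overlap, E7386 replicate 3 lies below the other 3 of its group, and the change of Ivl was 0.00 (95% interval -0.26 to 0.27). The other Ivl probe also gave 0.00.

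Promoters of a few members are shown because the members fell into sets that moved together between samples, and the sequences let these sets be compared. Each run below is the 250 bases before the start of the gene, 5′ to 3′ on the strand of the gene, from RefSeq on GRCm38.p6. Capitals mark matches to TGANTCA, the core site of AP-1 (Jun and Fos dimers), and to TATAAA, the TATA box. Lor stands for the scaffold genes, Sprr2d, Sprr2h and Sprr2i for the Sprr2 cluster, with pooled within-group SDs of 3.16, 0.65 and 1.40, and Lce3d for the Lce3 group.
Lor, chr3:92083143-92083392, minus strand: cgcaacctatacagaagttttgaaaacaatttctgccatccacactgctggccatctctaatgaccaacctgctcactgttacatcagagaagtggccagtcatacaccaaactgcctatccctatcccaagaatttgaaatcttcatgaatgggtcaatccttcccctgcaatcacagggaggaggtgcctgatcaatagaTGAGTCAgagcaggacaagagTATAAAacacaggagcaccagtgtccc
Sprr2d, chr3:92338890-92339139, plus strand: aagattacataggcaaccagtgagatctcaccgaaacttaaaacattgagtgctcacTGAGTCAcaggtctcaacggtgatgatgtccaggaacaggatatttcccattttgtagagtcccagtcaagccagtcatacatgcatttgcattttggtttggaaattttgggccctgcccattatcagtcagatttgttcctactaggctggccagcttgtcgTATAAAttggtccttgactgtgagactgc
Sprr2h, chr3:92385435-92385684, plus strand: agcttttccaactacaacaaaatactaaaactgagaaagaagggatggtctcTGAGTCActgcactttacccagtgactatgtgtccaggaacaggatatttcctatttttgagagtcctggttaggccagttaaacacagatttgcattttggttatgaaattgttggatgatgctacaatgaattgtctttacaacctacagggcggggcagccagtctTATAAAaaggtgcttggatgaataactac
Sprr2i, chr3:92407741-92407990, plus strand: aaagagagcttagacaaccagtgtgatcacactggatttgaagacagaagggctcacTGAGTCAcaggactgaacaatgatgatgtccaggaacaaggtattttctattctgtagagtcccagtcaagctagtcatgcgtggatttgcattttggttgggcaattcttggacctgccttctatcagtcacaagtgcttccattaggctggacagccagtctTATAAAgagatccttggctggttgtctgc
Lce3d, chr3:92957140-92957389, plus strand: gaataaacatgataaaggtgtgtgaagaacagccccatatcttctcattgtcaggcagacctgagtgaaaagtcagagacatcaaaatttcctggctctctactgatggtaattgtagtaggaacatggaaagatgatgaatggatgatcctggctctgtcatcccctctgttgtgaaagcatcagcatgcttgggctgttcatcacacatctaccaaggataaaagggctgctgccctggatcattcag

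Counted from the gene start, the first bases of the AP-1 match and the TATA box of Lor are at -48 and -27. Promoters were found for 49 of the 56 genes, and both strands were searched. AP-1 matches were in 18 of the 49 (36.7%), against 7.81% of 26738 genes with a promoter in the table. TATAAA was in 22 (44.9%), against 14.3% of all. All 7 Sprr2 promoters at hand (Sprr2b, Sprr2d, Sprr2e, Sprr2f, Sprr2h, Sprr2i and Sprr2k) had both. The TATA box started at -29 and an AP-1 match between -198 and -193, and Sprr2k had a further AP-1 match. Sprr2b and Sprr2k were not among the measured members, and the measured Sprr2a2 and Sprr2g had no promoter at hand. In contrast, 0 of the 12 Lce1 and 0 of the 6 Lce3 promoters had the AP-1 letters in this window. The glucocorticoid response element was in 0 of the 49 (0.445% of all), and the TCF/LEF letters CTTTGAT were in 2 (4.08%, against 3.73% of all). The identity between promoters of a pair had a median of 65.8% among Sprr2 genes, 64.2% among Lce1 and 58.6% among Lce3, against 49.1% among S100a genes other than S100a8 and S100a9. Sprr2d and Sprr2e, at 89.3%, were the most alike of the Sprr2 pairs. A match is a run of letters and not a measured binding site.

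No Lce1 gene passed the threshold. Of the 13 measured, 12 had a higher mean with E7386 (92.3%, against 53.9% of all genes). The median change of the 13 was 0.18, or 0.09 without vehicle replicate 2. Their pooled within-group SD had a median of 0.24, against 0.18 over all genes. With the array median as the reference level, 11 of 13 had a higher mean and the median was 0.11, while the median of all genes moved from 0.017 to -0.054. Lce1d read 4.60, 4.27, 4.63 and 4.36 with vehicle and 5.00, 4.64, 4.75 and 4.75 with E7386. Every E7386 value of Lce1d lies above every vehicle value, as holds for 1 of the 51 members and for 10.4% of all genes. The change of Lce1d was 0.32 (SE 0.12, unadjusted p = 0.0249, adjusted p = 0.256), a factor of 1.25.

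The other Lce1 genes did not separate the groups. Lce1e read 3.32, 2.88, 3.36 and 2.93 with vehicle and 3.92, 3.30, 3.20 and 3.35 with E7386, a change of 0.32 (SE 0.19). Lce1a2 ran from 5.35 to 5.67 with vehicle and from 5.56 to 5.88 with E7386, and its other probe changed by 0.12 against 0.16. The other probes of Lce1c and Lce1i changed by 0.23 and 0.28, close to the 0.17 and 0.23 of the probes used. E7386 replicate 1 was the highest of the 8 arrays for 11 of the 13 Lce1 genes, where 11.4% of all genes had their highest value there. Whether probes of related Lce genes share signal was not tested.

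Lce1m had the widest spread of the Lce1 genes, with a pooled within-group SD of 0.94. It read 0.89, 1.73, 2.23 and 3.60 with vehicle and 1.21, 1.17, 1.69 and 2.67 with E7386. Replicate 4 was the highest of each group, as it was for Lce1l, at 1.80 with vehicle and 2.02 with E7386. The change of Lce1m, -0.43 (SE 0.58), lay within the spread. In the RefSeq order along chromosome 3, Lce1m follows Lce3f, on the far side of the Lce3 genes from the other Lce1 genes, Lce1l among them. Of the 10 suprabasal epidermis markers, Krt10, Krt77 and Krt78 were highest on the same array of each group and the other 7 were not. Krt77 was at 1.39 on vehicle replicate 4 and 0.56 on E7386 replicate 4 against -2.72 to -0.67 and -3.35 to -2.34 on the others. Lor, Flg2, S100a5 and S100a11 were also highest on replicate 4 of each group. The part of epidermis content in these values was not tested.

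Lce3 genes differed widely between samples of the same group. Lce3a read -1.16, -2.35, -0.75 and -3.33 with vehicle and 2.64, 1.59, -2.20 and -1.53 with E7386. E7386 replicates 1 and 2 were above all vehicle samples, and E7386 replicates 3 and 4 lay among them. Within the E7386 group the values span 4.84, a factor of 28.7. The change of Lce3a was 2.02 (SE 1.13, adjusted p = 0.452), with a wide 95% interval of -0.59 to 4.63.

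Lce3d read 2.05, 1.48, 2.08 and 0.92 with vehicle and 3.90, 2.83, 1.64 and 1.68 with E7386. The 8 samples fall in the same order as for Lce3a, with vehicle replicate 4 lowest and E7386 replicate 1 highest, and the change was 0.88 (SE 0.52). Lce3b read 1.11, 0.38, 1.25 and -0.11, then 3.29, 2.25, 0.61 and 0.59. Lce3e read 0.15, -0.59, -0.19 and -1.82, then 2.04, 0.90, -1.84 and -1.04, a change of 0.63 (SE 0.85). Lce3c and Lce3f followed, with changes of 0.76 and 1.02.

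All 6 Lce3 genes had their 2 highest values on E7386 replicates 1 and 2, as did 3.54% of all genes tested. Their changes had a median of 0.95, or 0.46 without E7386 replicate 1, and 0 of the 6 passed the threshold. The pooled within-group SD was 0.85 to 1.86, above the 95th percentile of all genes (0.64) for all 6, whereas the median over Lce1 genes was 0.24.

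**Figure D2:**
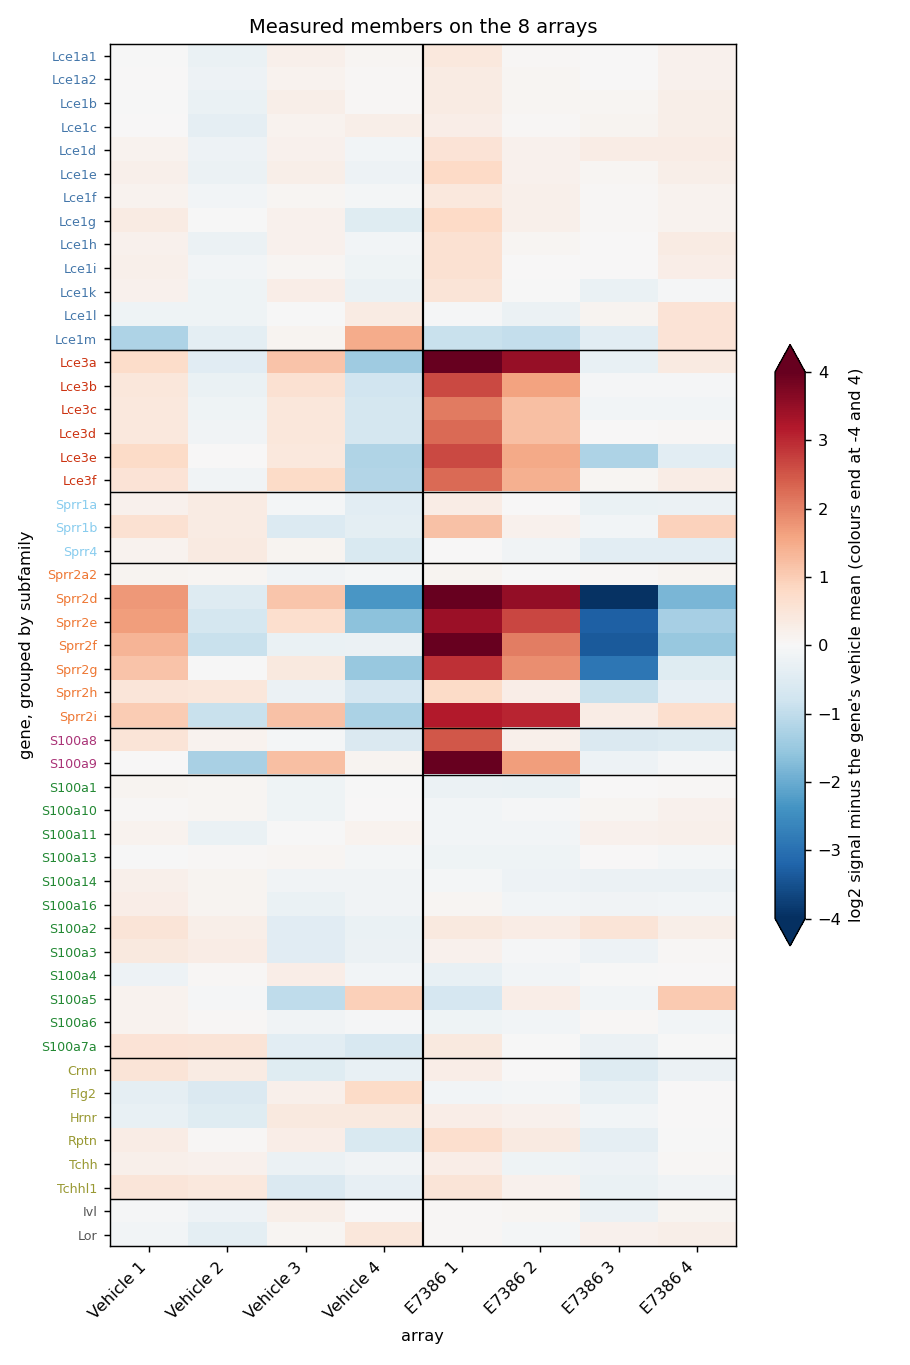
Log2 signal of the 51 measured members minus the vehicle mean of each gene, by array, with a line between groups and between subfamilies. Lce3 and most Sprr2 genes are high on E7386 replicates 1 and 2, and most Sprr2 genes are low on E7386 replicate 3. S100a8 and S100a9 are highest on E7386 replicate 1.

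Sprr2 genes had the largest spread of the subfamilies. Sprr2d read 0.78, -1.46, 0.18 and -3.27 with vehicle and 3.51, 2.57, -4.88 and -2.77 with E7386. The E7386 group holds both the highest and the lowest of the 8 values, a span of 8.40 or a factor of 337. The change of 0.55 (SE 1.92, adjusted p = 0.933) is small beside that span. The value of -4.88 is close to -5.21, the lowest level of any probe well above background on that array.

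Sprr2e, with a promoter much like that of Sprr2d, read -0.21, -2.57, -1.20 and -3.53 with vehicle and 1.55, 0.79, -5.15 and -3.22 with E7386. Only its value on E7386 replicate 3 was not well above background. Sprr2g read -0.03, -1.20, -0.80 and -2.71, then 1.74, 0.67, -4.07 and -1.66. The 8 samples fall in the same order for Sprr2d, Sprr2e and Sprr2g, with E7386 replicate 3 lowest. Whether probes of related Sprr2 genes share signal was not tested, so these may not be separate readings. Sprr2f was well above background on 4 vehicle and 2 E7386 arrays, and its pooled SD was 2.48.

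Sprr2i read -2.93, -4.83, -2.75 and -5.20 with vehicle and -0.76, -0.89, -3.64 and -3.27 with E7386. Its change of 1.79 (SE 0.86, adjusted p = 0.38) was the largest among Sprr genes, and its 95% interval ran from -0.18 to 3.76. Unlike Sprr2d, it was not lowest on E7386 replicate 3. Sprr2h read 2.43, 2.40, 1.70 and 1.29, then 2.71, 2.22, 1.05 and 1.62, a change of -0.06 (SE 0.40).

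Sprr2a2 gave different answers by probe. Its brightest probe read 7.97, 7.96, 7.74 and 7.80 with vehicle and 7.98, 7.85, 7.91 and 7.98 with E7386, a change of 0.06 (SE 0.08), or -0.04 after quantile normalization. A dimmer probe, well above background on all arrays, read 6.00, 4.92, 4.74 and 3.91 with vehicle and 5.72, 5.32, 0.94 and 2.91 with E7386. As with Sprr2d, E7386 replicate 3 was lowest on that probe, and its change was -1.17. The table also holds Sprr2a1 and Sprr2a3, which have no probe of their own here, and which of these genes each probe reads is not known. With the detected probes of Sprr2a2 averaged, its change was -0.55.

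Of the 7 measured Sprr2 genes, all 7 were highest on E7386 replicate 1, against 11.4% of all genes. For Sprr2a2 this was by a small margin, since E7386 replicates 1 and 4 both round to 7.98. Of the 7, 5 had their 2 highest values on E7386 replicates 1 and 2, against 3.54% of all genes. The mean of the 7 genes relative to vehicle was 2.70 and 1.91 on these samples, and -2.01 and -0.67 on E7386 replicates 3 and 4. Among vehicle samples it was 1.07, -0.35, 0.39 and -1.10. Thus the vehicle group spread in the same genes, over a smaller range. The means on E7386 replicates 3 and 4 include Sprr2f at -7.53 and -5.67, below the lowest level well above background there. On E7386 replicate 3 the mean also includes Sprr2e, which was not well above background on that array.

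**Figure D3:**
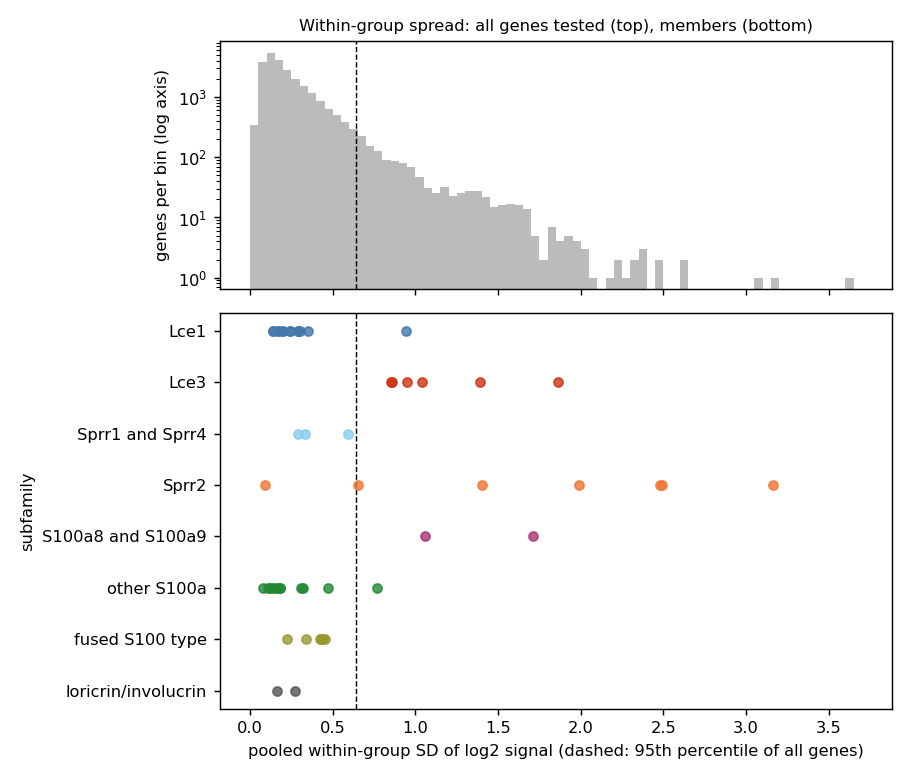
Pooled within-group SD of log2 signal (x axis) of all genes tested, as a histogram with a log axis, and of each measured member by subfamily, with a dashed line at the 95th percentile of all genes, 0.64. The Lce3 genes, 6 of 7 Sprr2 genes, S100a8, S100a9, Lce1m and S100a5 lie to the right of the line.

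Sprr genes outside the Sprr2 cluster were steadier. Sprr1a, a precursor of cross-bridging peptides found early in cornification, read 6.78, 6.93, 6.53 and 6.20 with vehicle and 6.91, 6.61, 6.35 and 6.38 with E7386. The groups overlap and the change was -0.04 (SE 0.19). Sprr1b read 2.39, 2.10, 1.24 and 1.39, then 2.96, 1.94, 1.66 and 2.71, a change of 0.53 (SE 0.36). Sprr4 read 3.24, 3.45, 3.21 and 2.50, then 3.13, 2.96, 2.68 and 2.67, a change of -0.24 (SE 0.21), the largest negative one among Sprr genes. Sprr3, a protein of internal stratified epithelia such as esophagus, did not reach a signal well above background on any array, nor did Sprr2k. Sprr2b was well above background on E7386 replicate 1 alone. The pseudogene Sprr2j-ps was so on 0 vehicle and 2 E7386 arrays, replicates 1 and 2 at -3.08 and -3.46. Its vehicle values were raised to the lowest level well above background on their array, and its E7386 values were used as measured. The E7386 mean was then 1.95-fold higher, which is not a strict lower limit, since E7386 replicates 3 and 4 were dim (-5.94 and -6.00). For Sprr2b the same calculation gave a log2 difference of -0.49.

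S100a8 and S100a9 encode the subunits of calprotectin, an antimicrobial heterodimer of neutrophils and of stressed keratinocytes. S100a9 read 0.76, -0.55, 1.96 and 0.87 with vehicle and 5.24, 2.42, 0.56 and 0.70 with E7386. E7386 replicates 1 and 2 were the 2 highest and replicates 3 and 4 lay inside the vehicle range, so the change of 1.47 (SE 1.04, adjusted p = 0.558) was within the spread. S100a8 read 2.39, 2.00, 1.77 and 1.27, then 4.34, 2.06, 1.28 and 1.35, with E7386 replicate 1 alone above the vehicle samples. Its change was 0.40 (SE 0.65), and -0.30 without E7386 replicate 1.

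The mean of neutrophil markers differed by less than the mean of this pair. Of 11 markers with a probe, Mpo, Ngp, Ltf, Mmp8 and Mmp9 failed the detection filter, each well above background on at most 1 array per group. Of the 6 measured, Cxcr2, Retnlg and Stfa2l1 were highest on E7386 replicate 1, and Elane, Camp and Csf3r were not. Stfa2l1 read -0.53, -1.78, -1.87 and -2.16 with vehicle and -0.39, -0.49, -1.82 and -1.48 with E7386. The mean of the 6 measured markers ran from -1.07 to -0.69 with vehicle and from -1.16 to -0.42 with E7386, with the highest value on E7386 replicate 1. Relative to vehicle that mean was 0.46 on E7386 replicate 1 and 0.15 on replicate 2, where the mean of S100a8 and S100a9 was 3.48 and 0.93. Macrophage markers, 10 measured, stood at 0.27 and 0.15 on these samples. Their part in the S100a8 and S100a9 values was not tested.

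Most other S100a genes differed little between groups or samples. S100a3 read 8.32, 8.23, 7.48 and 7.69 with vehicle and 8.11, 7.88, 7.73 and 7.98 with E7386. Vehicle replicates 3 and 4 were lowest, and the change was 0.00 (95% interval -0.46 to 0.45). Padi3, the enzyme known to citrullinate S100a3, is among the filaggrin-processing genes counted below.

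S100a6 (calcyclin), widespread in epithelium and mesenchyme, ran from 7.86 to 8.13 with vehicle and 7.81 to 8.05 with E7386, a change of -0.09 (SE 0.09). S100a4, also called fibroblast-specific protein, ran from 4.56 to 5.00 with vehicle and from 4.44 to 4.78 with E7386, a change of -0.11, and -0.15 on its other probe. S100a10, the partner of annexin A2, changed by 0.02 (SE 0.09), S100a11 by 0.04, S100a13 by -0.09 and S100a1 by -0.12. These intervals are narrow, with that of S100a10 from -0.19 to 0.24 and that of S100a13 from -0.26 to 0.09.

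S100a14, an epithelial member of the family, had the lowest p of the S100a genes. It read 6.28, 6.19, 5.95 and 5.96 with vehicle and 6.01, 5.88, 5.84 and 5.84 with E7386, a change of -0.20 (SE 0.10, adjusted p = 0.382). Vehicle replicates 1 and 2 lay above all E7386 values, and vehicle replicates 3 and 4 among them. S100a16 changed by -0.08, and by -0.15 on its other probe. S100a2 was lowest on vehicle replicates 3 and 4, at -1.95 and -1.76, and the other 6 arrays were at -1.28 or above, a change of 0.35 (SE 0.20). S100a7a, the mouse relative of psoriasin, read 0.73, 0.70, -0.23 and -0.46, then 0.57, 0.15, -0.06 and 0.17, a change of 0.03 (SE 0.29). S100a5 had a wide spread, from -2.81 to -0.85 with vehicle and -2.47 to -0.75 with E7386. S100a7l2 never reached a signal well above background.

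**Figure D4:**
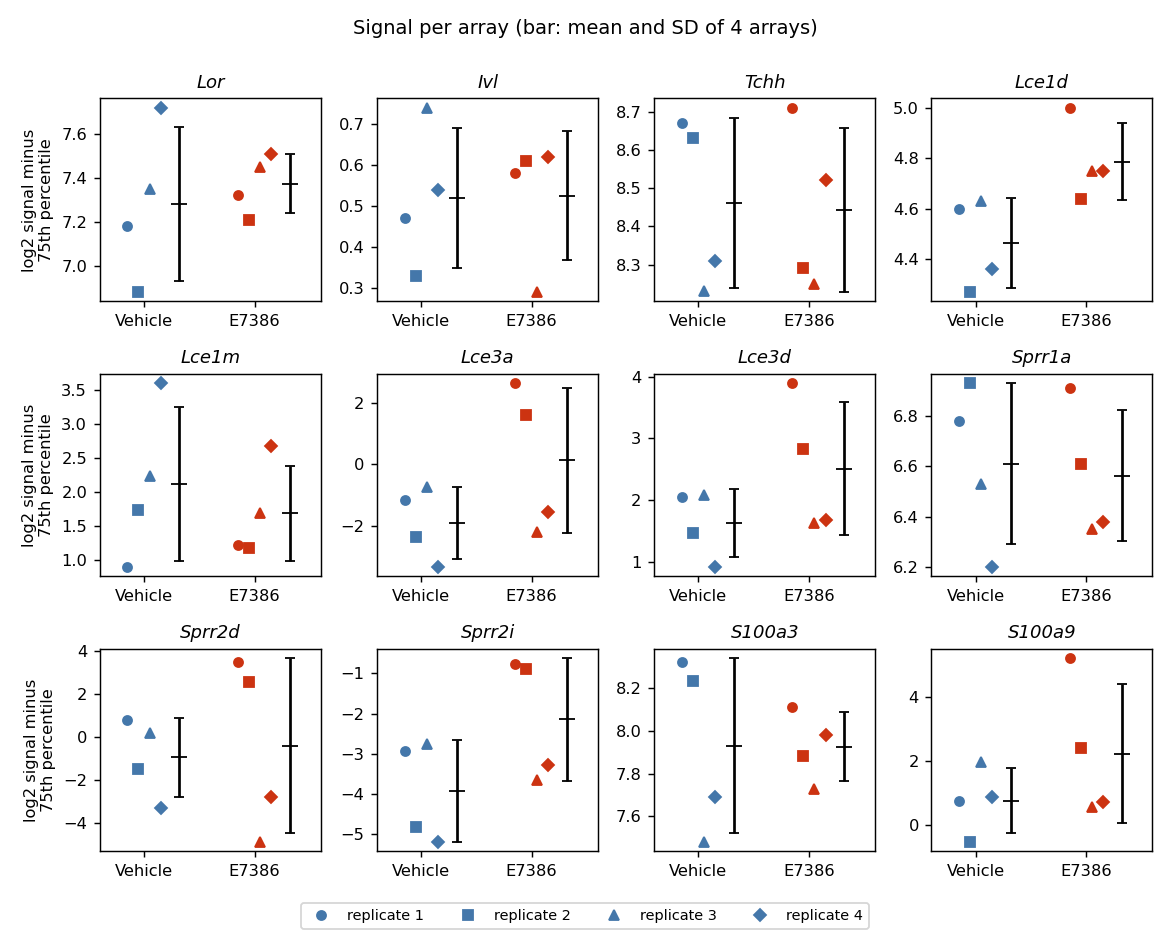
Log2 signal minus the 75th percentile of the array (y axis, a scale of its own for each gene) for 12 members, with a marker shape per replicate number and the mean and SD of 4 arrays beside each group. Lce3a, Lce3d, Sprr2d, Sprr2i and S100a9 are high on E7386 replicates 1 and 2, while Lor, Ivl and Tchh overlap between groups.

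Among genes of the fused S100 type, trichohyalin was the steadiest. Tchh read 8.67, 8.63, 8.23 and 8.31 with vehicle and 8.71, 8.29, 8.25 and 8.52 with E7386, a change of -0.02 (SE 0.14, 95% interval -0.35 to 0.31). Its neighbour Tchhl1 read 7.57, 7.52, 6.52 and 6.75, then 7.62, 7.25, 6.83 and 6.96, a change of 0.07 (SE 0.28). Crnn (cornulin), a protein of stratified epithelia, read 4.91, 4.74, 3.91 and 4.10, then 4.69, 4.43, 3.88 and 4.17, a change of -0.12 (SE 0.26). In all of these the vehicle group splits, with replicates 1 and 2 above replicates 3 and 4.

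That split was shared with hair shaft keratins. Vehicle replicates 1 and 2 were both above replicates 3 and 4 in all 10 measured keratins of cuticle and cortex, in 9 of 14 S100a genes and in 3 of 6 genes of the fused S100 type. Over all members it held for 17 of 51 (33.3%) and over all genes for 34.4%, so the members as a whole are no different from other genes in this.

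Filaggrin-2 read 0.62, 0.40, 1.19 and 1.76 with vehicle and 0.89, 0.90, 0.69 and 1.02 with E7386, a change of -0.12 (SE 0.28). Hornerin, another filaggrin-like repeat protein, read 0.84, 0.67, 1.54 and 1.52, then 1.41, 1.30, 1.04 and 1.16, a change of 0.08 (SE 0.21). The E7386 values of Flg2 and Hrnr lie inside the vehicle range. Rptn (repetin), a protein of cornified and hair follicle keratinocytes, read 2.60, 2.37, 2.58 and 1.70, then 2.98, 2.66, 1.95 and 2.30, a change of 0.16 (SE 0.27). Within the vehicle group, Flg2 and Hrnr were higher on replicates 3 and 4, the opposite of Tchhl1.

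Genes that act with these proteins were counted on lists made apart from the members. Of 16 genes of the envelope, among them the transglutaminases Tgm1, Tgm3 and Tgm5 that cross-link it, 0 passed the threshold, with a median change of 0.10. Cst6 (cystatin M), an inhibitor of envelope-related proteases, changed by 0.17 (SE 0.08, adjusted p = 0.366), Tgm5 by 0.16 and Serpinb3a, a serpin of squamous epithelium, by 1.06 (SE 0.53). Serpinb3a read -4.58, -4.67, -4.82 and -5.01 with vehicle and -2.23, -3.26, -4.93 and -4.42 with E7386. Like the Lce3 genes, it was highest on E7386 replicates 1 and 2.

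Of 21 genes that process filaggrin or shed corneocytes, 0 passed. Klk14, a desquamation protease, had the lowest p, at a change of 1.30 (SE 0.34, adjusted p = 0.128), with 1 vehicle and 3 E7386 arrays well above background. It passed the detection filter through the E7386 arrays alone, so its change and p rest on vehicle readings near background. Padi2 was at 0.31 and Capn1 at -0.12. Of 16 barrier lipid genes 0 passed, with Elovl4, which makes very long fatty acids, at 0.19, Pnpla1 at 0.21 and Aloxe3 at 0.18. Of 21 transcription factors of epidermal differentiation 0 passed. Fosl2, a Fos-family partner in AP-1, came closest, reading 3.77, 3.49, 3.53 and 3.55 with vehicle and 3.94, 3.94, 4.06 and 3.98 with E7386. Its change was 0.40 (SE 0.08, adjusted p = 0.0745). Its groups did not overlap, as holds for 1 of these 21 genes and for 10.4% of all genes. Smarca4 was at -0.21 and Zfp750 at -0.22. Of 3 S100 genes outside the cluster and S100pbp, whose product is named for binding an S100 protein, 0 passed. S100z was at 1.02, S100g at 1.12 and S100pbp at -0.18. S100g was well above background on 1 vehicle and 3 E7386 arrays, and S100z on 2 and 3. Both passed the detection filter through the E7386 arrays alone, so their changes rest largely on vehicle readings near background.

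Muscle signal was low on the samples with the highest Sprr2 means, but did not follow the Lce3 means throughout. Relative to the vehicle mean, the muscle list was at -1.82 on E7386 replicate 1 and -0.97 on replicate 2, and at -2.02 on vehicle replicate 1, which had the highest Sprr2 mean of the vehicle group. Vehicle replicate 3, with the highest Lce3 mean of that group (0.64) and a Sprr2 mean of 0.39, had a muscle mean of 0.79. It was between 0.23 and 1.09 on the other 5 arrays. With the muscle mean as a covariate, 0 of the 51 members passed the threshold, the lowest adjusted p was 0.167, the Lce3 median was 0.86 and the median over all Sprr genes went from 0.34 to 0.08. This covariate was chosen after seeing the data. The suprabasal epidermis list, 10 genes, ran from 2.34 to 2.84 with vehicle and 2.26 to 2.78 with E7386. Relative to vehicle it was at -0.19 and -0.16 on E7386 replicates 1 and 2. These negative means rest largely on Krt77, which read -3.35 and -2.38 there, against -2.72 to 1.39 with vehicle. They do not show lower signal of the other markers as a set. On E7386 replicate 1, Krt1 and Cdsn had their highest value of all arrays, and Krt77 and Dsg1b their lowest. Keratins of the companion layer, outer sheath and activated epidermis, 7 genes, were at -0.05 and 0.09 on E7386 replicates 1 and 2. The part of these differences in the Lce3 and Sprr2 values was not tested.

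**Figure D5:**
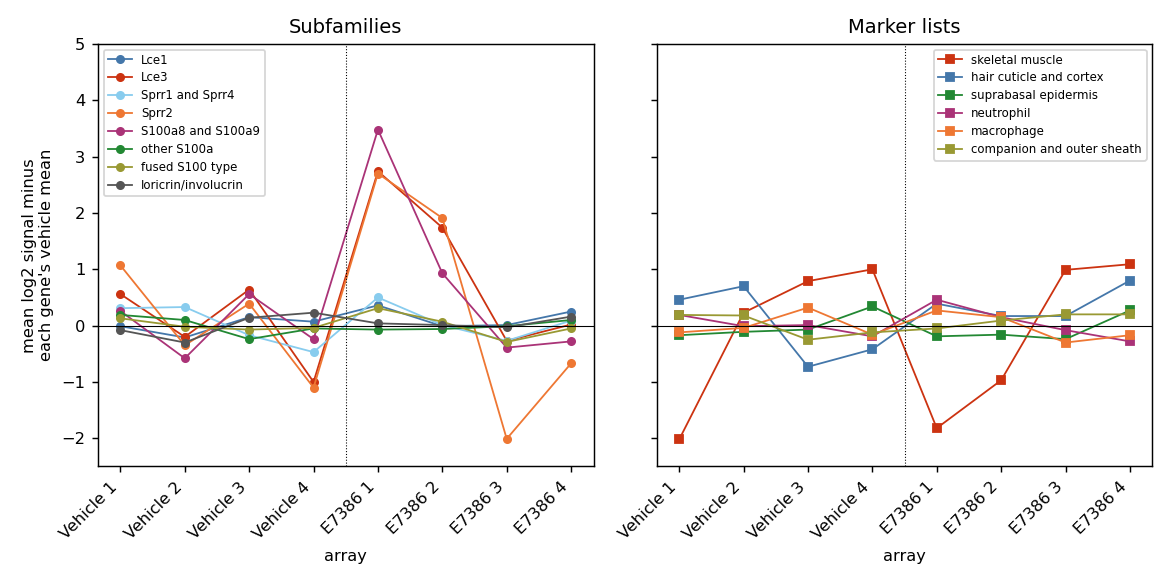
Mean log2 signal minus the vehicle mean of each gene (y axis) for each subfamily (left) and for marker lists (right) on the 8 arrays; lines join the points of a set and imply no order of samples. Lce3, Sprr2 and the S100a8 and S100a9 pair peak on E7386 replicate 1, at 2.74, 2.70 and 3.48, and the muscle list is lowest on vehicle replicate 1, at -2.02.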

How the data were processed

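Total RNA (50 ng per sample) was labelled with Cy3 and hybridised to 1-colour Agilent arrays, per the labels' protocols. The authors' scanner files hold intensities from Feature Extraction 11.5.1.1, per the file headers (version 11 per the submitters' processing notes). The main values are log2 of its processed signal, which is background-corrected per the file headers, minus the 75th percentile of each array. The authors also deposited processed log2 values, which share 1 distribution in all columns (median 5.31), and served as an alternative. The tool behind them is not given in the sources used here.

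Probes were named by matching unversioned accessions to RefSeq (GRCm38.p6): 27509 of 29150 RefSeq probes matched. The array design is on mm9, so no gene coordinates were taken. Spots of a probe were averaged, spots marked non-uniform (2 to 14 per array) set to missing, and the brightest probe per gene was kept. Between 61.5% and 64.7% of spots were well above background. Tests used lmFit and eBayes of limma 3.58.1 (R 4.3.3) over 25353 genes and were checked on simulated data. Precision is limited by the 4 arrays per group.

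The members and lists were chosen with earlier results of these data known. Named were all S100a genes, all fused-type genes, Lor and Ivl, the extremes of Sprr and Lce, and in each companion list the genes of smallest p. Further Lce and Sprr genes, the Lce1, Lce3 and Sprr2 split, Krt77 and the printed promoters were chosen after their values were seen. Alternatives covered background, normalization, filter, probe choice, variance model, weights, marked spots, replicate block, threshold and leaving out each array.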

Additional observations from a re-analysis of the deposited data

Results flagged for a closer look

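Ivl on E7386 replicate 3 read 0.29, apart from the other 3 samples of its group at 0.58 to 0.62, by a gap large for a group of 4 (Dixon's criterion). It was the only such case among 124 groups of 4 checked, over the measured members and their subfamily means, where chance gives about 1 in 20. The wide spread of Lce3 and Sprr2 genes is not of this kind, since 2 samples of the E7386 group were high together.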

How the results depend on the processing

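The number of members past the threshold was 0 in all settings tried, including each leave-one-out fit. Over 20 alternatives, 1018 member values were recomputed, of which 82 turned sign, 0 passed the threshold and 4 moved by more than their SE, with a lowest adjusted p of 0.167 among the 51 measured. Those 4 are Sprr2a2 with quantile normalization, the authors' values and averaged probes, and S100a8 without E7386 replicate 1. The median of the Sprr genes ran from -0.32 to 1.09 when 1 array was left out and was -0.09 with array weights. Over all genes, 287 were called, 69.0% of them higher with E7386, against 55.3% with array medians. The count was 155 with no detection filter, 657 at an adjusted p under 0.1, 582 with the muscle covariate (chosen after seeing the data) and 86 to 257 when 1 array was left out, lowest without E7386 replicate 3. With the replicate number as a block it was 48. The numbers are not known to pair samples, since same-numbered samples had correlations of deviations of 0.49, -0.17, 0.29 and 0.18. Among companion genes 1 passed with trend and robust options (Fosl2, adjusted p = 0.038), 1 with the replicate block (Klk14, adjusted p = 0.0472) and 1 at an adjusted p under 0.1 (Fosl2). Klk14 met the detection filter through the E7386 arrays alone, so its p rests on vehicle readings near background. The cause of these differences was not tested. Normexp on the mean signal was not run, since that column is not in the files used here, and the median signal was used in its place, with 0 members called.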
